A study of Danio rerio with 18 samples.

Results

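The Myc family and its partners were followed in whole brains of zebrafish that carry a loss-of-function allele of mfn2, the gene of the mitochondrial outer membrane protein mitofusin 2. The set was defined by 10 gene symbols, which stand for 11 of the 32057 rows of the deposited count table. Of these symbols, mych, mycn, mycla, mycbp, max, mxi1 and mxd4 each named 1 row. The symbols myca and mycb stand for the 2 rows that the table of gene names calls MYC (ENSDARG00000007241 and ENSDARG00000045695), and that table does not say which row is which gene. It likewise calls 2 rows MNT (ENSDARG00000101859 and ENSDARG00000073988), of which 1 is mnta, so both are described by their IDs. All 11 rows passed the filter on low counts that left 20353 genes for testing.

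Each library was made from the pooled whole brains of 4 fish, 2 females and 2 males, at 4 months of age. The 3 genotypes were homozygous (Hom) for the hu3528 allele of mfn2, heterozygous (Het) for it, and wild type (WT), with 6 libraries each. All were siblings from 6 families, each from a single mating of 1 pair of heterozygous parents, and siblings of a family were moved to separate tanks by genotype after genotyping at 2.5 months. Genotype and tank therefore cannot be told apart within a family. Polyadenylated RNA was sequenced, and the values are raw counts per gene.

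Myc proteins are transcription factors that bind DNA as dimers with Max, at sequences called E-boxes, and are known for driving genes of growth, ribosome production, metabolism and cell division. Max also pairs with the Mxd proteins, with Mxi1 and with Mnt, and those dimers repress genes at the same sites. In the nervous system N-Myc is best known from dividing progenitors, and Myc levels in mature neurons are usually low.

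Library totals ran from 21945070 to 42897654 counts, and every group value below is in normalized CPM, that is counts scaled to library size after TMM normalization. CPM is not divided by transcript length, so levels are compared between libraries and never between genes. The transcript of mfn2 itself was at 25.4 to 34.1 normalized CPM in Hom, 67.8 to 117 in Het and 75.2 to 140.2 in WT. In family 2 the library labelled Het (117) lay above the library labelled WT (75.2), which goes against their labels. Listed neuron markers summed to 10830 to 13732 normalized CPM in Hom, 13358 to 14063 in Het and 12650 to 14201 in WT, so neuron markers were present in all libraries. Without the Hom library of family 3, which held 13732, the Hom libraries held 10830 to 12106, below every Het and WT library. For each library, log2 levels were compared with each gene's median over the 18 libraries, and the SD of these deviations was taken over 13196 genes. It was 0.217 to 0.319 in 15 libraries. In the other 3, the Het libraries of families 1 and 3 and the Hom library of family 3, it was 0.722 to 1.12. They are called the outlying libraries below, and the main results that differ without them are given both ways.

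The members were chosen with the Hom against WT comparison already known, in which mych stood among the most raised genes. Their differences between Hom and WT, and between Hom and Het, which uses the same Hom libraries, are therefore given as a description with standard errors and no test. The Het against WT comparison contrasts no Hom library and is tested, as are differences between families. It shares the WT libraries, and its spread and family terms were estimated over all 18 libraries, those of Hom included. In whole-brain pools, more RNA per cell and more cells of a type that makes the RNA cannot be told apart.

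Transcripts of mych, a fish Myc gene known in zebrafish for a part in the survival of neural crest cells, were several times more abundant in Hom brains than in either sibling genotype. The level of mych was lowest at 24.7, with a median of 39.9 and a highest value of 46.3 normalized CPM, in Hom. In Het it ran from 6.06 over a median of 8.03 to 14.996, and in WT from 6.11 over a median of 7.13 to 13.6. The lowest Hom library lay above the highest library of both other genotypes, while Het and WT libraries covered almost the same range. The raw counts behind these levels were 666 to 1354 in Hom, 168 to 377 in Het and 167 to 353 in WT.

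The fitted fold change of mych was 4.84 for Hom against WT, a log2 fold change of 2.28 ± 0.18 (SE) with a 95% interval of 1.88 to 2.67. For Hom against Het it was 4.38, a log2 fold change of 2.13 ± 0.18. Within families the ratio of Hom to WT ranged from 2.99 in family 2 to 7.58 in family 4, with a median of 5.08, and that of Hom to Het from 2.93 in family 6 to 7.64 in family 4. The Hom level was thus higher in 6 of 6 families in both comparisons. With the outlying libraries left out, the log2 fold change of mych was 2.197 ± 0.18 relative to WT and 2.13 ± 0.20 relative to Het.

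**Figure D1:**
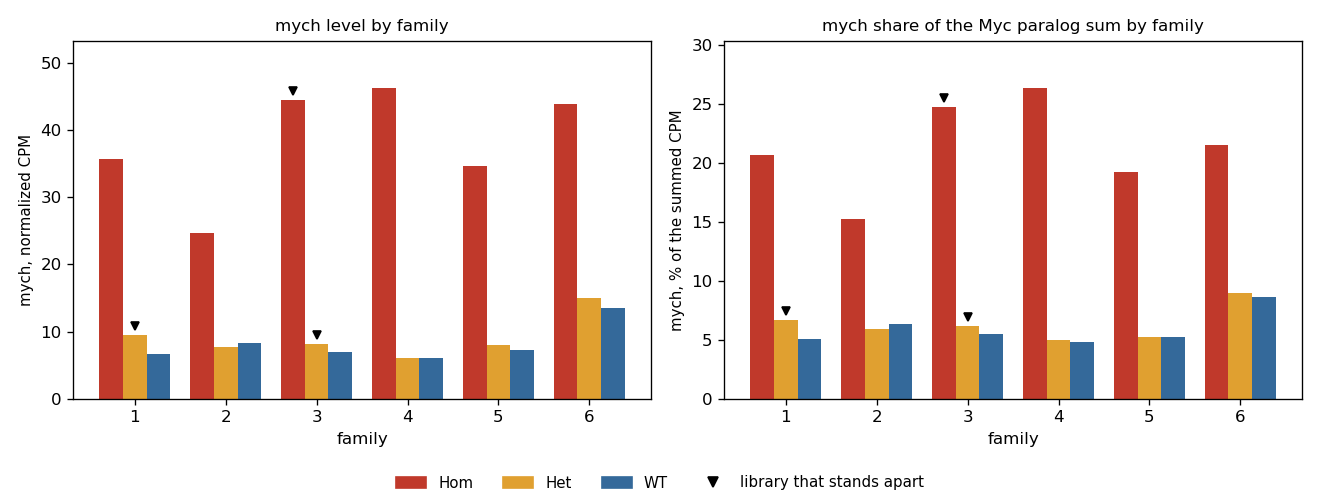
Left, level of mych in normalized CPM (y axis) in the Hom, Het and WT library of each family (x axis). Right, mych as a percentage of the summed normalized CPM of the 5 Myc paralog rows of the set in the same libraries. Each bar is 1 library and black triangles mark the 3 outlying libraries. The Hom bar is the tallest in every family, and family 6 has the highest Het and WT bars.

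In Het against WT, mych did not differ beyond the spread between libraries. The log2 fold change was 0.15 ± 0.18, with a 95% interval from −0.23 to 0.52, and edgeR's quasi-likelihood test gave a Benjamini-Hochberg adjusted p of 0.903. Het was above WT in 4 of 6 families and below it in 2, with ratios from 0.931 to 1.43. The interval leaves room for a Het level from 0.850 to 1.44 times that of WT. Family 2, whose Het and WT libraries go against their labels by mfn2, had 7.70 normalized CPM of mych in Het and 8.27 in WT.

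Family 6 had the highest mych levels outside Hom, with 14.996 normalized CPM in Het and 13.6 in WT, against 6.06 to 9.43 in the other 5 Het libraries and 6.11 to 8.27 in the other 5 WT libraries. Its Hom library, at 43.9, lay inside the range of the other Hom libraries. The family effect on mych did not pass edgeR's quasi-likelihood F test over all genes (adjusted p = 0.323).

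The other Myc paralogs showed no difference of that size. The row MYC (ENSDARG00000007241), one of the 2 zebrafish counterparts of mammalian MYC, was at 35.2 to 61.1 normalized CPM in Hom with a median of 40.9, at 33.1 to 41.3 in Het with a median of 38.2, and at 33.3 to 39.1 in WT with a median of 36.1. The 3 ranges overlapped, and the highest value belongs to family 3, in its outlying Hom library. Its log2 fold change was 0.27 ± 0.11 relative to WT and 0.20 ± 0.11 relative to Het, with Hom higher in 5 of 6 families in both. The Hom against WT value was 0.17 ± 0.06 without the outlying libraries.

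The other MYC row (ENSDARG00000045695) was at 25.1 to 36.3 normalized CPM in Hom, 29.7 to 38.3 in Het and 25.8 to 35.3 in WT. Its log2 fold change for Hom against WT was −0.05 ± 0.08, the smallest standard error among the 11 rows, with a 95% interval of −0.22 to 0.12. The log2 fold change of mych in the same comparison was 2.28. Both values are given as a description, and nothing is tested by setting them side by side.

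Transcripts of mycn, which encodes N-Myc, ran from 28.6 over a median of 57.7 to 68.5 normalized CPM in Hom, from 35.4 over 45.4 to 63.0 in Het and from 37.2 over 44.9 to 55.7 in WT. All ranges overlapped. Hom was higher than WT in 5 of 6 families, and the exception was family 3, whose Hom library had the lowest value of all 18. The log2 fold change was 0.20 ± 0.12 for Hom against WT with all libraries and 0.32 ± 0.05 without the outlying libraries. For Hom against Het it was 0.14 ± 0.13 with all libraries and 0.27 ± 0.06 without the 3.

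The L-Myc gene mycla was at 10.4 to 20.9 normalized CPM in Hom, 10.5 to 15.8 in Het and 10.4 to 16.7 in WT. Its highest value was again that of the Hom library of family 3, and the other 5 Hom libraries stayed within 10.4 to 15.4. The log2 fold change for Hom against WT was −0.04 ± 0.15, with Hom lower in 4 of 6 families, and −0.16 ± 0.11 without the outlying libraries.

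**Figure D2:**
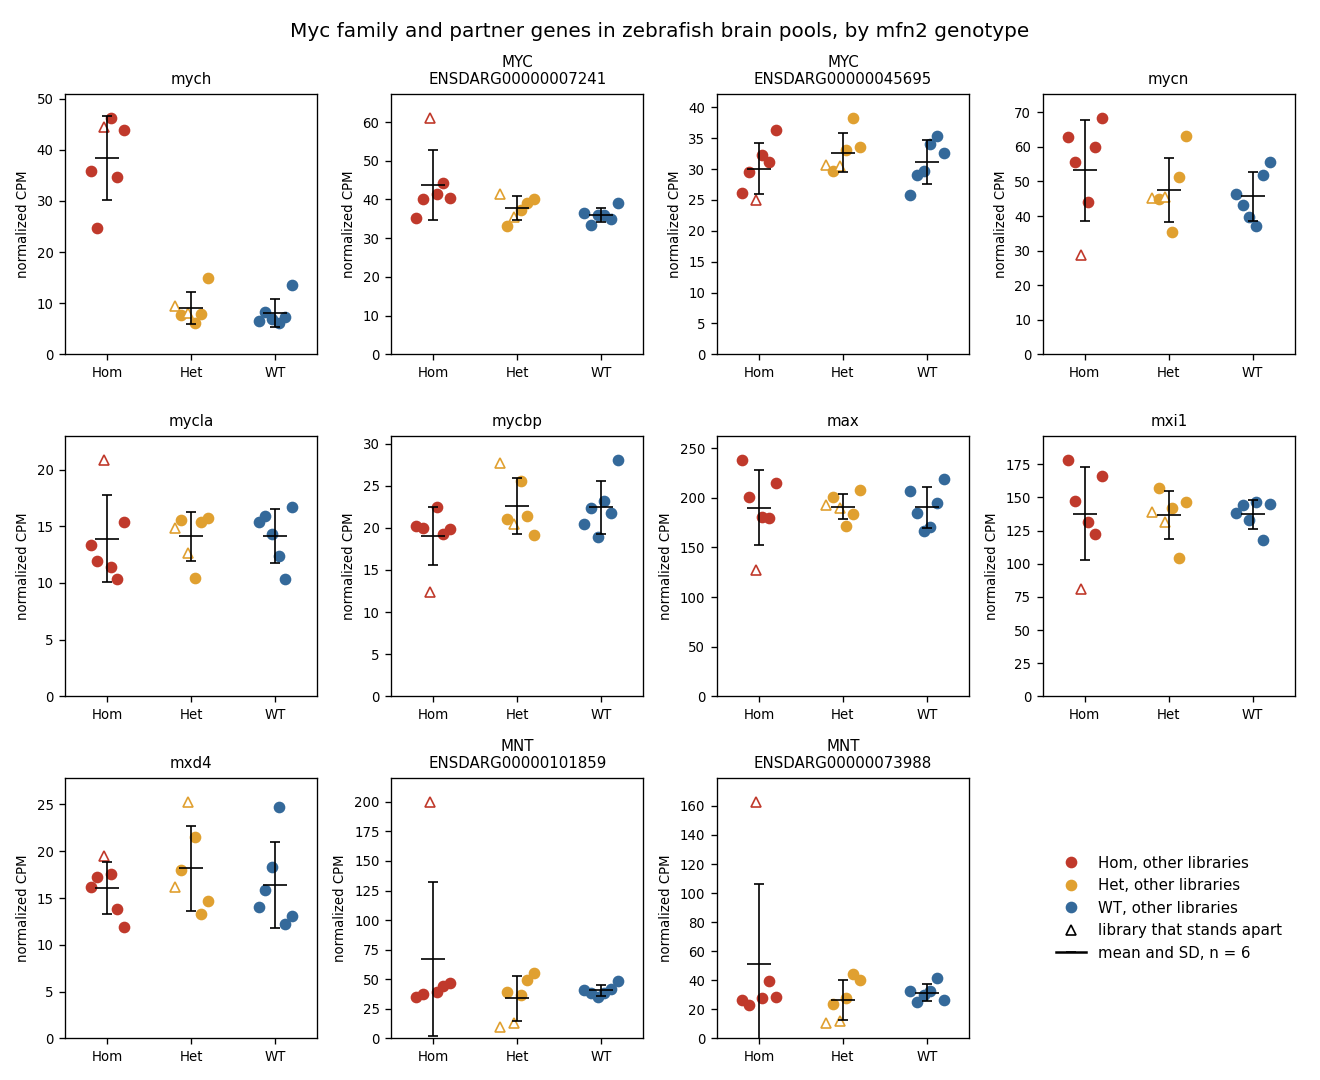
Normalized CPM (y axis, linear and starting at 0) of the 11 rows in the Hom, Het and WT libraries, 1 point per library, with mean and SD (n = 6, error bars cut off at 0); open triangles are the 3 outlying libraries. For mych the Hom points, 24.7 to 46.3, lie above all others, whereas in the other 10 panels the genotypes overlap, and both MNT panels are dominated by the Hom library of family 3.

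The same mych values can be set against the counts of its paralogs, which restates the level of mych and is no separate result. Summed over the 5 paralog rows (mych, both MYC rows, mycn and mycla), Hom brains held 179 ± 14.03 normalized CPM, Het 141 ± 16.5 and WT 135 ± 12.1 (SD, n = 6 each). With mych left out, the sums were 141 ± 10.9 in Hom, 132 ± 13.8 in Het and 127 ± 9.61 in WT. The share of mych in the sum was 15.3% to 26.3% in Hom, 4.95% to 8.95% in Het and 4.85% to 8.62% in WT. These are shares of counts, not of molecules, since the sum is not corrected for transcript length. The second L-Myc gene, MYCL, is outside the set and was not in the sum, so the shares hold only among these 5 rows.

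The transcript of max, the shared dimer partner, did not follow mych. It was at 127 to 238 normalized CPM in Hom with a median of 191, at 171 to 208 in Het with a median of 191, and at 167 to 219 in WT with a median of 189. The lowest value was in the Hom library of family 3, and the remaining Hom libraries ran from 179.5 to 238. The log2 fold change for Hom against WT was −0.01 ± 0.10 with a 95% interval of −0.24 to 0.21, and 0.06 ± 0.05 without the 3 libraries. Hom was higher than WT in 3 of 6 families.

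The partner mycbp, which encodes a protein that binds Myc, had its lowest value in Hom, in the library of family 3. It was at 12.3 to 22.5 normalized CPM in Hom with a median of 19.9, at 19.2 to 27.7 in Het with a median of 21.2, and at 18.9 to 28.1 in WT with a median of 22.1. The ranges overlapped, yet Hom was below WT in 6 of 6 families and below Het in 5 of 6. The log2 fold change was −0.26 ± 0.12 relative to WT and −0.26 ± 0.12 relative to Het. Leaving out the outlying libraries gave −0.18 ± 0.09 and −0.07 ± 0.10.

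Among the genes of repressor partners of Max, mxi1 was at 81.1 to 178.5 normalized CPM in Hom with a median of 140, at 104 to 157 in Het with a median of 141, and at 118 to 146 in WT with a median of 141. The medians lay within 2 normalized CPM of each other, and the Hom library of family 3 had the lowest value. Its log2 fold change for Hom against WT was −0.02 ± 0.13, and 0.11 ± 0.07 without the 3 libraries. The gene mxd4 was at 11.9 to 19.5 normalized CPM in Hom, 13.3 to 25.3 in Het and 12.2 to 24.8 in WT. Its log2 fold change for Hom against WT was −0.01 ± 0.10, with Hom higher in 4 of 6 families.

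Both MNT rows, for genes of the Max-binding repressor Mnt, had their extreme values in the 3 outlying libraries. MNT (ENSDARG00000101859) was at 200 normalized CPM in the Hom library of family 3, and at 9.70 and 12.9 in the Het libraries of families 1 and 3. Its other 15 values ran from 34.7 to 46.9 in Hom, from 36.4 to 55.4 in Het and from 34.8 to 48.5 in WT. MNT (ENSDARG00000073988) was at 163 in the same Hom library and at 10.4 and 11.8 in the same Het libraries.

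The remaining values of this second row ran from 22.7 to 39.3 in Hom, 23.4 to 44.0 in Het and 25.2 to 41.6 in WT. The log2 fold changes for Hom against WT were 0.47 ± 0.49 and 0.39 ± 0.47 over all libraries. With the outlying libraries left out they were −0.04 ± 0.07 and −0.12 ± 0.10, so the direction turned. In the Hom library of family 3, transcripts of 23 listed oocyte markers summed to 399 normalized CPM. The remaining Hom libraries held 21.9 to 38.9, Het libraries 11.9 to 36.0 and WT libraries 17.3 to 34.1. The part of these transcripts in the member values of that library was not tested.

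By count, 1 of the 11 rows (mych) passed edgeR's quasi-likelihood test over all genes for Hom against WT, where 1.92% of all 20353 genes passed. It was also the 1 row that passed for Hom against Het, where 1.99% of all genes passed. These comparisons guided the choice of the set, so nothing is read from these counts. In the 15 other libraries 2 rows passed in each comparison, mych and mycn, where 8.05% of all genes passed relative to WT and 4.77% relative to Het. The median log2 fold change over the 11 rows was −0.01 for Hom against WT, beside 0.04 over all genes tested. Libraries did not overlap between Hom and WT for 1 of 11 rows, mych, and for 3.04% of all genes tested. Between Hom and Het they did not overlap for the same row and for 3.26% of all genes, and between Het and WT for 0 of 11 rows and 0.0786% of all genes.

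**Figure D3:**
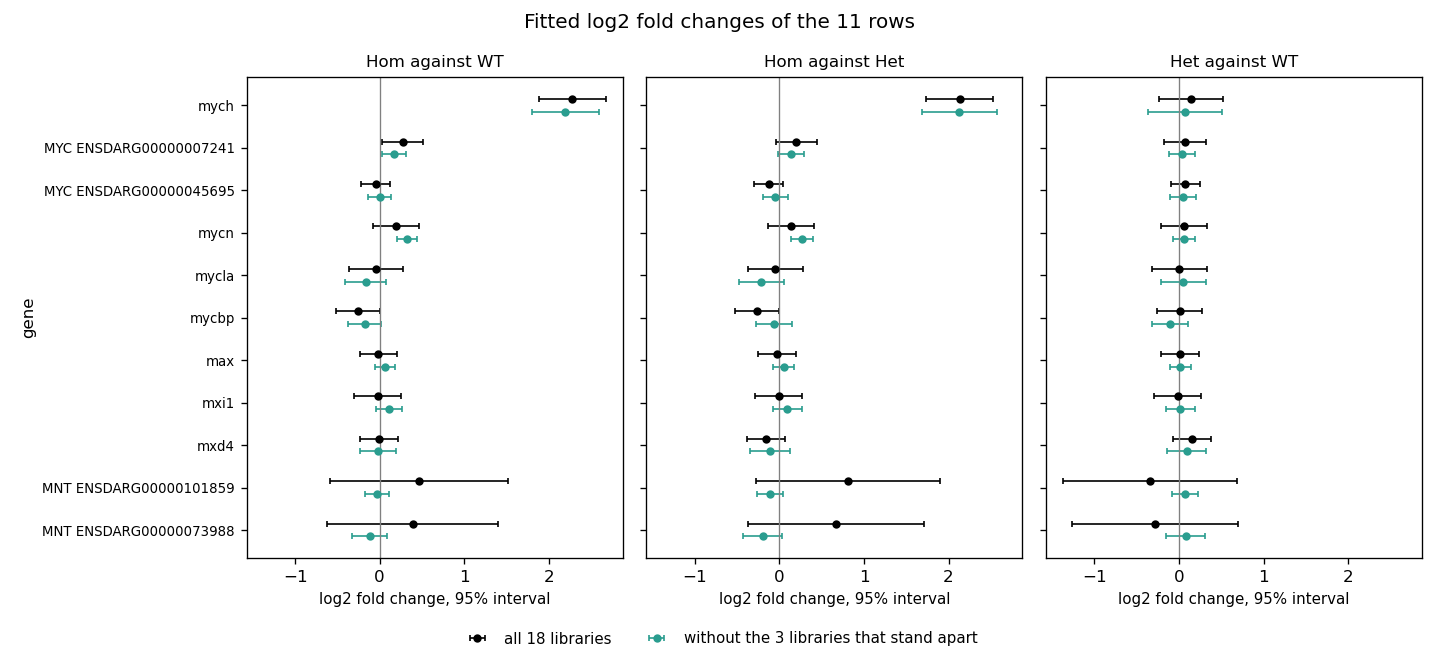
Fitted log2 fold changes (x axis, points) with 95% intervals (bars) of the 11 rows for Hom against WT, Hom against Het and Het against WT, with all 18 libraries in black and without the 3 outlying libraries in green. The mych points sit near 2 in both comparisons that involve Hom, every other point lies within 1 of zero, and the wide bars of both MNT rows shrink once the 3 libraries are left out.

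In the Het against WT comparison 0 of the 11 rows passed edgeR's quasi-likelihood test, and so did 0 of all 20353 genes (0%), of which 524 (2.57%) had an unadjusted p under 0.05. DESeq2 called 2 genes over all, and 0 of them were members. Adjusted p ran from 0.903 to 0.995 over the rows, and 0 of the 11 had an unadjusted p under 0.05. The log2 fold changes lay between −0.34 and 0.15, with a median of 0.01 beside 0.01 over all genes. The 95% intervals reached from −1.37 to 0.70 over all rows, and both ends belong to the MNT rows. Without the outlying libraries they reached from −0.37 to 0.51, and shifts of a member inside its interval cannot be told from no difference with these samples. Nor did mfn2 itself pass in this comparison, at −0.54 ± 0.16 with all libraries (adjusted p = 0.903 by edgeR's quasi-likelihood test). Its 95% interval, from −0.90 to −0.18, still lay below zero, and Het was below WT in 5 of 6 families, all but family 2. The family 2 libraries that go against their labels by mfn2 were included. With family 2 left out, 0 of 20456 genes passed edgeR's test for Het against WT. The log2 fold change of mych was then 0.21, the highest among the alternatives run.

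Differences between families were also tested. In the F test over the 6 families, 1 of the 11 rows, mxd4, passed (adjusted p = 0.0439), where 1.91% of all genes passed. Mean levels of mxd4 over the 3 genotypes were 21.3 normalized CPM in family 4 and 21.1 in family 3, against 13.1 in family 5 and 13.2 in family 6. The call for mxd4 was lost when any family but the third was left out, with adjusted p from 0.0879 to 0.205, and without the filter on low counts (0.0755).

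In the fit without the outlying libraries, 5 of the 11 rows passed the family test, mycn, max, mxd4 and both MNT rows, where 10.7% of all genes passed. The adjusted p of mycn was then 0.00117 by edgeR's quasi-likelihood F test. Family means of mycn in these 15 libraries ran from 38.9 normalized CPM in family 4 to 62.4 in family 6, although the libraries of families 1 and 3 are not of all genotypes there. For max the adjusted p was 0.0307, and the family means ran from 167 in family 3, where only the WT library remained, to 223 in family 1.

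The profile of mych over the 18 libraries was compared with those of all tested genes by the root mean square difference of z-scored log2 levels. The rise of mych in Hom was already known when it was chosen. Genes near it share that rise by the way they were picked, so their levels are no separate result. The nearest were trib3 (0.154), a stress pseudokinase, atf3 (0.265), a stress-induced transcription factor, ociad2 (0.302), fosl1 (0.321), a subunit of the AP-1 transcription factor, and nes (0.322), the gene of the intermediate filament nestin. The median difference over all genes was 1.32. Levels of trib3 were 24.6 to 45.6 normalized CPM in Hom, 10.4 to 18.9 in Het and 10.05 to 15.5 in WT. For nes they were 53.4 to 110.9 in Hom, 17.3 to 28.3 in Het and 18.5 to 24.5 in WT. Among the other members the nearest was MYC (ENSDARG00000007241), at 0.842, and the farthest was mycbp, at 1.66.

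The wider network was examined through lists of genes by known role. These lists were chosen with earlier results of these data known. Their values for Hom against WT and Hom against Het are therefore also a description, and an adjusted p only marks which genes passed over all genes. The first list held other genes of the Myc, Max and Mlx network. It also held usf1, usf2, tfap4 and TFE3, which are not dimer partners of Max or Mlx. Of its 15 tested genes 0 passed for Hom against WT, with a lowest adjusted p of 0.338 by edgeR's quasi-likelihood test. The median log2 fold change of the list was 0.15 beside 0.04 over all genes. Examples are mlx, the gene of a Max-like dimer partner (0.35 ± 0.16), and the second L-Myc gene MYCL (0.09 ± 0.11). In the 15 other libraries 1 gene of the list rose, where 4.77% of all genes rose. It was TFE3 (ENSDARG00000098903), at 0.55 ± 0.16 (adjusted p = 0.0490 by edgeR).

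Of 32 tested regulators and cofactors of Myc protein, 1 rose for Hom against WT and 0 fell, where 1.49% of all genes rose and 0.423% fell. It was pim1, a kinase known to act together with Myc, at 105 ± 4.58 normalized CPM in Hom and 77.4 ± 13.5 in WT (SD, n = 6), a log2 fold change of 0.46 ± 0.09 that was positive in 6 of 6 families (adjusted p = 0.0198 by edgeR). For Hom against Het, 0 of 32 passed with all libraries, where 1.19% of all genes rose and 0.801% fell. Without the outlying libraries 0 of 32 rose and 1 fell relative to Het, where 2.93% of all genes rose and 1.83% fell.

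Of 36 tested nucleolar and ribosome biogenesis genes, the class best known as induced by Myc, 0 passed relative to WT and 0 relative to Het, where 1.92% and 1.99% of all genes passed, and the median log2 fold change for Hom against WT was 0.01 beside 0.04 over all genes. Fibrillarin, fbl, was at 0.06 ± 0.15, and the nucleolar GTPase gene gnl3 at 0.12 ± 0.15. With the outlying libraries left out 2 of 36 rose for Hom against WT, npm1a of the nucleolar chaperone nucleophosmin (0.51 ± 0.08) and the nucleolar helicase gene ddx21 (0.31 ± 0.08), where 4.77% of all genes rose. Relative to Het 1 of 36 then rose, where 2.93% of all genes rose.

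Of 28 tested genes of nucleotide and polyamine synthesis, 1 rose for Hom against WT, where 1.49% of all genes rose. It was mthfd1l of mitochondrial folate metabolism (log2 fold change 2.12 ± 0.27, at 4.67 ± 0.73 normalized CPM in Hom and 1.11 ± 0.50 in WT). For Hom against Het 3 of 28 rose and 1 fell, where 1.19% of all genes rose and 0.801% fell. The ornithine decarboxylase gene odc1, a classic Myc target, rose by a log2 fold change of 0.49 ± 0.10, as did MAT2A (ENSDARG00000037121) by 0.79 ± 0.17, while the spermine synthase gene sms fell (−0.49 ± 0.11). Each of these moved the same way in 6 of 6 families, with adjusted p from 0.00166 to 0.0415 by edgeR. The same 3 rose and sms fell relative to Het with the outlying libraries left out (sms −0.36 ± 0.05, odc1 0.43 ± 0.10), where 2.93% of all genes rose and 1.83% fell. Relative to WT, 3 of 28 then rose (mthfd1l, MAT2A and CTPS1) and 2 fell (sms and PAICS), where 4.77% of all genes rose and 3.29% fell. The gene odc1 did not pass relative to WT, either with all libraries or without the outlying ones.

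Of 25 tested genes of growth and nutrient uptake, 2 rose for Hom against WT and 0 fell, where 1.49% of all genes rose and 0.423% fell. The median of the list was −0.11 beside 0.04 over all genes. The 2 that rose were the glucose transporter SLC2A1 (ENSDARG00000007412, 1.81 ± 0.14) and the hexokinase gene hk2 (1.53 ± 0.19). The level of hk2 was 11.1 ± 3.98 normalized CPM in Hom and 3.71 ± 0.62 in WT (SD, n = 6), and both genes were higher in 6 of 6 families. For Hom against Het 3 of 25 rose, these and a second SLC2A1 row (ENSDARG00000001437, 0.53 ± 0.12), where 1.19% of all genes rose. In the 15 other libraries 7 rose and 3 fell for Hom against WT, where 4.77% of all genes rose and 3.29% fell. The list's median was then 0.005 beside 0.016 over all genes. Of the 3 that fell, the lactate dehydrogenase gene ldha (−0.29 ± 0.07) is an example picked after its value was seen. The 7 that rose were, like ldha, listed as Myc targets. For Hom against Het 4 of 25 rose and 2 fell in these libraries, where 2.93% of all genes rose and 1.83% fell.

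Of 30 tested cell cycle genes, 2 rose relative to WT and the same 2 relative to Het, where 1.49% and 1.19% of all genes rose, and 0 fell in either. They were cdkn1a, the gene of the cell cycle inhibitor p21 (1.01 ± 0.23 for Hom against WT, adjusted p = 0.0395 by edgeR), and GADD45A (ENSDARG00000043581, 0.86 ± 0.14, adjusted p = 0.00528). Both restrain growth, and both are known as genes that Myc represses, but the part of Myc in their rise was not tested. With all libraries, proliferation genes did not pass, with pcna at −0.06 ± 0.16 and mki67 at 0.15 ± 0.29. The list's median was 0.20 beside 0.04 over all genes. Without the outlying libraries 4 of 30 rose relative to WT, cdkn1a, GADD45A, mcm6 and cdkn1ca, where 4.77% of all genes rose. Relative to Het 4 of 30 then rose, where 2.93% of all genes rose, and 0 fell in either comparison. The list's median was then 0.28 relative to WT and 0.27 relative to Het, beside 0.016 and 0.008 over all genes.

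**Figure D4:**
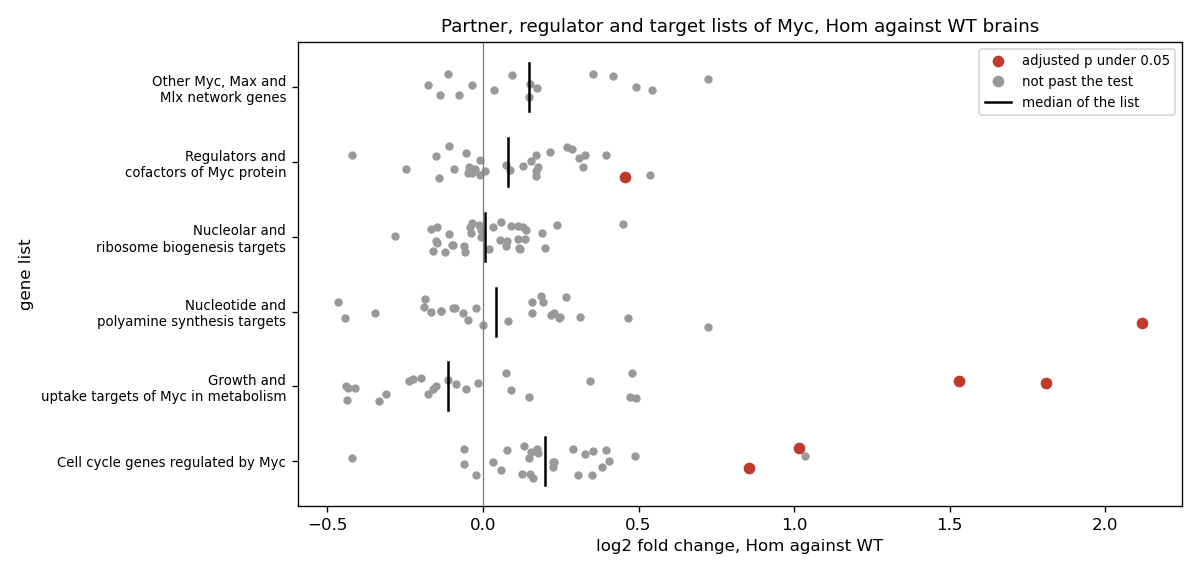
Log2 fold change for Hom against WT (x axis) of each tested gene in the 6 lists of partners, regulators and targets of Myc (y axis), 1 point per gene with vertical jitter; red points passed the test and black bars are list medians. Between 0 and 2 genes per list are red, all of them above zero, and the medians lie between −0.11 and 0.20.

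Microglia markers also differed between genotypes. The 15 microglia and macrophage markers found summed to 712 to 2209 normalized CPM in Hom, 890 to 1441 in Het and 868 to 1261 in WT, and 5 of 15 rose for Hom against WT, where 1.49% of all genes rose. In the Hom library of family 3 this sum was 712, the lowest of all 18 libraries, while mych was at 44.5 normalized CPM there. In the other 5 Hom libraries the sum ran from 1608 to 2209, above all Het and WT libraries. The part of microglia in the level of mych was not tested, and the family 3 values come from 1 outlying library. Oligodendrocyte and myelin markers summed to 7133 to 18641 normalized CPM in Hom, 15054 to 28465 in Het and 13504 to 21025 in WT, and their part was not tested. Of the markers of neutrophils (4 tested), erythrocytes (5), oocytes (6), neurons (20), radial glia (12) and oligodendrocytes (9), 0 passed in either Hom comparison with all libraries, and no marker found was without any count. Without the outlying libraries 5 of 20 neuron markers fell for Hom against WT, where 3.29% of all genes fell, and 12 of 15 microglia markers rose, where 4.77% of all genes rose. In that comparison 1 of 9 oligodendrocyte markers rose and 1 fell. Relative to Het, 4 of 20 neuron markers then fell, where 1.83% of all genes fell. Of the microglia markers 2 of 15 rose relative to Het with all libraries and 8 of 15 without the outlying ones, where 1.19% and 2.93% of all genes rose.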

How the data were processed

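Gene counts from 18 pools of zebrafish brain were used. Per the submitters' processing notes, reads were handled with STAR 2.7.0a and featureCounts of Subread 1.5.2 on the genome build GRCz11. The authors deposited raw, unnormalized counts of all libraries in 1 table. For the annotation release, strand setting and multi-mapping reads, nothing is given in the sources used here, so rows with close paralogs or overlapping genes are uncertain. All 18 columns were matched to samples by name, and 0 were left unused. Gene IDs were named from a table that covers 28988 of them, and list symbols without a match were tried again without a final paralog letter, a step chosen after that table was seen. Sequences of the members were not used here.

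The main test was the quasi-likelihood test of edgeR 4.0.16 (R 4.3.3) after TMM scaling and filterByExpr (at least 10 counts, total at least 15; prior count 0.125), with genotype and family as terms over all 18 libraries. P-values were adjusted over all genes tested by Benjamini-Hochberg at a threshold of 0.05. Standard errors were computed from each log2 fold change and its F statistic (size over √F), and 95% intervals use the fit's t distribution. Differences within families used log2 of normalized CPM plus 0.5. Family was kept as a block because a family is 1 mating. Deviations from genotype means correlated with a median r of 0.17 over 18 same-family pairs of libraries. Over 90 pairs of another family and another genotype the median r was −0.08. Of the same-family pairs 8 did not exceed 0.1, and of the 90 pairs 21 did. No libraries agreed within sampling noise (lowest chi-square per degree of freedom 6.77 over 153 pairs).

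Named genes are all members, mfn2, the 5 nearest profiles to mych, and up to 4 list genes per direction that passed. Examples from lists that did not pass, and those named without the outlying libraries, were chosen after their values were seen. The members, lists and the 3 outlying libraries were chosen with earlier results of these data known. The script was tested on simulated data. Alternatives were RLE scaling, DESeq2 1.42.0, no filter, no family term, and leaving out libraries or families. The depth of 21945070 to 42897654 counts put at least 167 counts behind every mych value.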

Additional observations from a re-analysis of the deposited data

Results flagged for a closer look

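A gap rule for single libraries (Dixon's ratio above its 95% critical value for 6 libraries) was applied to the 11 rows in each genotype, 33 groups in all. It marked 5, where chance marks about 1 in 20 groups, or 1.65 of 33. The WT library of family 6 was marked for mych, at 13.6 normalized CPM, where the remaining WT libraries held 6.11 to 8.27. The other 4 marks were all in family 3, in its outlying Hom library. It was high for MYC (ENSDARG00000007241), at 61.1 against 35.2 to 44.2, for MNT (ENSDARG00000101859), at 200.1 against 34.7 to 46.9, and for MNT (ENSDARG00000073988), at 163 against 22.7 to 39.3. It was low for mycbp, at 12.3 against 19.3 to 22.5.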

How the results depend on the processing

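Over the 11 alternatives run, the log2 fold change of mych ranged from 2.14 to 2.43 for Hom against WT and from 1.97 to 2.24 for Hom against Het, given as a description since mych was chosen on this difference. DESeq2 called 1054 genes for Hom against WT, 1626 for Hom against Het, 2 for Het against WT and 1975 by family, with 3 members by family, against 390, 406, 0, 389 and 1 by edgeR. Without the 3 outlying libraries edgeR called 1658, 981, 0 and 2207 genes, with 2, 2, 0 and 5 members. Without the filter 0 members passed by family. Leaving out 1 family at a time gave 142 to 716 genes for Hom against WT, 127 to 645 for Hom against Het and 135 to 1096 by family, with 1 to 2, 1 to 2 and 0 to 2 members. The highest counts came without family 3, the lowest without family 4. In the fit of all 18 libraries with no replicate block, 341, 423 and 0 genes and 1, 1 and 0 members passed. The member called between genotypes was mych, both with and without the pairing by family. The fit without the outlying libraries, in which mycn also passed, was not run without the block.

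For Het against WT, some fold changes crossed zero, in no case past the test. Without the 3 libraries mycbp was at −0.11 and mxi1 at 0.0151. The MNT rows turned from −0.34 with all libraries to 0.0719 (ENSDARG00000101859) and from −0.28 to 0.0766 (ENSDARG00000073988). For mycla the value was −0.000804 by DESeq2 and −0.00775 with no replicate block. With 1 family left out, mycla ran from −0.113 to 0.0563, mycbp from −0.0764 to 0.117, max from −0.0241 to 0.0368 and mxi1 from −0.0393 to 0.0176. The fit without the 3 libraries leaves out the Het libraries of families 1 and 3. These held 9.70 and 12.9 normalized CPM of MNT (ENSDARG00000101859), and 10.4 and 11.8 of MNT (ENSDARG00000073988). The other Het libraries held 36.4 to 55.4 and 23.4 to 44.0. What sets the left-out libraries apart was not tested, nor was the cause of the other crossings. Every mych value had at least 167 counts behind it. The standard errors of the MNT rows reached 0.50 with all libraries and 0.11 without the 3.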
